A study of Mus musculus with 6 samples.

Results

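Cela3b, Cd9, Tent5a, Rogdi, Spon2, Adamts16, Nid1 and 2210407C18Rik are 8 of the 18194 genes measured in livers of CYP2D6-humanized mice, and they were chosen by their array values at pregnancy day 21, which stood far above those before pregnancy. They have no common pathway in liver metabolism. The mice were of the C57BL/6 strain, and animals of every group carried human CYP2D6, a gene for a drug-metabolising enzyme, as a transgene. Livers were taken at 3 stages, before pregnancy, at day 21 of pregnancy and at day 7 postpartum, with 2 biological replicates per stage and 1 Affymetrix mouse array per liver. The labels do not give the ages of the mice, the promoter or copy number of the transgene, the litters or the time of day of collection. Differences between stages cannot be told apart from differences in these, where they existed. All values are deposited log2 intensities after RMA (a summary of the probes of each probe set), and where a gene has several probe sets, the brightest on average stands for it. The values that chose the 8 genes are those of pregnancy against pre-pregnancy, so that contrast is described here without a test.

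The 8 genes act in different compartments. Cela3b encodes a digestive serine protease of the elastase family, made as an inactive precursor and best known from pancreatic acinar cells. Adamts16 encodes a secreted zinc metalloprotease of the ADAMTS family, whose members carry thrombospondin repeats and act in extracellular matrix. Nid1 (nidogen 1) links laminin to type IV collagen in basement membranes, and Spon2 (mindin) is a secreted matrix protein known in mice for roles in innate immune recognition. Cd9 is a tetraspanin, a membrane protein that organises partner proteins at the cell surface and is common on extracellular vesicles. Tent5a encodes a terminal nucleotidyltransferase that lengthens poly(A) tails of messenger RNAs, known in mouse bone for its action on collagen transcripts. Rogdi is a leucine zipper protein associated with the RAVE complex, which helps to assemble the proton pump V-ATPase. 2210407C18Rik is annotated as protein coding, and no role is given to it here.

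Promoter sequences were found for 6 of the 8 genes in the RefSeq table (build GRCm38.p6), and 4 are shown because they bracket the 2 kinds of time course described below: Cela3b and 2210407C18Rik were back near their pre-pregnancy level at postpartum day 7, and Cd9 and Tent5a were not. Each is the 250 bases before the annotated start site, 5′ to 3′ on the gene's strand, with CG dinucleotides and any TATAAA in capitals. This composition was looked at after the time courses were known.
Cela3b, chr4:137430521-137430770, minus strand: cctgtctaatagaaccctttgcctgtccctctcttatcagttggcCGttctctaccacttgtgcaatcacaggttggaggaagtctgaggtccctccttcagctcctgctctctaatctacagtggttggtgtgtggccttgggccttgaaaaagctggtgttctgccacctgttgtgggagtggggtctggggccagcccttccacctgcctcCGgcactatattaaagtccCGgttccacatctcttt
2210407C18Rik, chr11:58613493-58613742, minus strand: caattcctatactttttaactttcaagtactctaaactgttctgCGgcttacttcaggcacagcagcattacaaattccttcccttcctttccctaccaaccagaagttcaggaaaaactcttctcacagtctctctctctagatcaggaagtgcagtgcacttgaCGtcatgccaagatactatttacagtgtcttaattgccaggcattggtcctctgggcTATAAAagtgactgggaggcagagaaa
Cd9, chr6:125494761-125495010, minus strand: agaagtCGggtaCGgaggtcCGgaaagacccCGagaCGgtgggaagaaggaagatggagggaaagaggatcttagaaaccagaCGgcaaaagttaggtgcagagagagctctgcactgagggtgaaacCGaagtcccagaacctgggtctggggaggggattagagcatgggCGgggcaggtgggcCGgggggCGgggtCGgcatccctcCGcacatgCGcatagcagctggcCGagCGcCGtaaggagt
Tent5a, chr9:85327151-85327400, minus strand: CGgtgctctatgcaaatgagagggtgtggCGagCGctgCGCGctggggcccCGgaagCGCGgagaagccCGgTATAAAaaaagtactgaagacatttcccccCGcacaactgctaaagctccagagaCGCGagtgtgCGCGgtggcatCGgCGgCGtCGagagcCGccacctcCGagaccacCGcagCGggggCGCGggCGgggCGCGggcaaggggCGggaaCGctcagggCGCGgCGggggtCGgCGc
The first pair held 3 and 2 CG dinucleotides, against a median of 6 over 32851 promoter windows of the same length. Cd9 held 16 and Tent5a 34, at or above the upper quartile of 16. Nid1, which was also back near its pre-pregnancy level, held 16 and Rogdi 20, so CG content did not sort the genes by time course. The table holds a second Tent5a start site, whose window overlaps the one shown and held 38 CG, with the same TATAAA 204 bases before that start. TATAAA began 27 bases before the start site in 2210407C18Rik and 178 bases before the first start site of Tent5a, and 7.59% of the windows held it on the gene's strand. Over the windows from 250 bases before to 50 bases after the start, both strands were searched for 4 motifs, all of which read the same on both strands. The STAT5-type motif TTCNNNGAA was found in 0 of the windows of these 6 genes and in 8.30% of all windows. The palindromic estrogen receptor element (0.0700% of all windows), the palindromic glucocorticoid and progesterone receptor element (0.475%) and the E-box CACGTG (7.15%) were also found in 0 of them.

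Arrays of the series were alike in level, with medians between 5.09 and 5.15, and replicate arrays correlated across genes at 0.994 to 0.997. The 14 measured hepatocyte markers lay between 6.09 and 14.98. The 3 measured Y-linked genes, which female tissue lacks, lay between 3.18 and 3.97 and show where an absent transcript reads on these arrays. A group mean at or below 5.12, the median of all values, is called dim here, and a fold change against a dim group is imprecise. For arrays, their number limits the precision: with 2 livers per stage, p-values come from limma, which pools the spread of all 3 stages and adjusts over all 18194 genes. The labels call the replicates biological and say no more of how the animals were chosen.

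**Figure D1:**
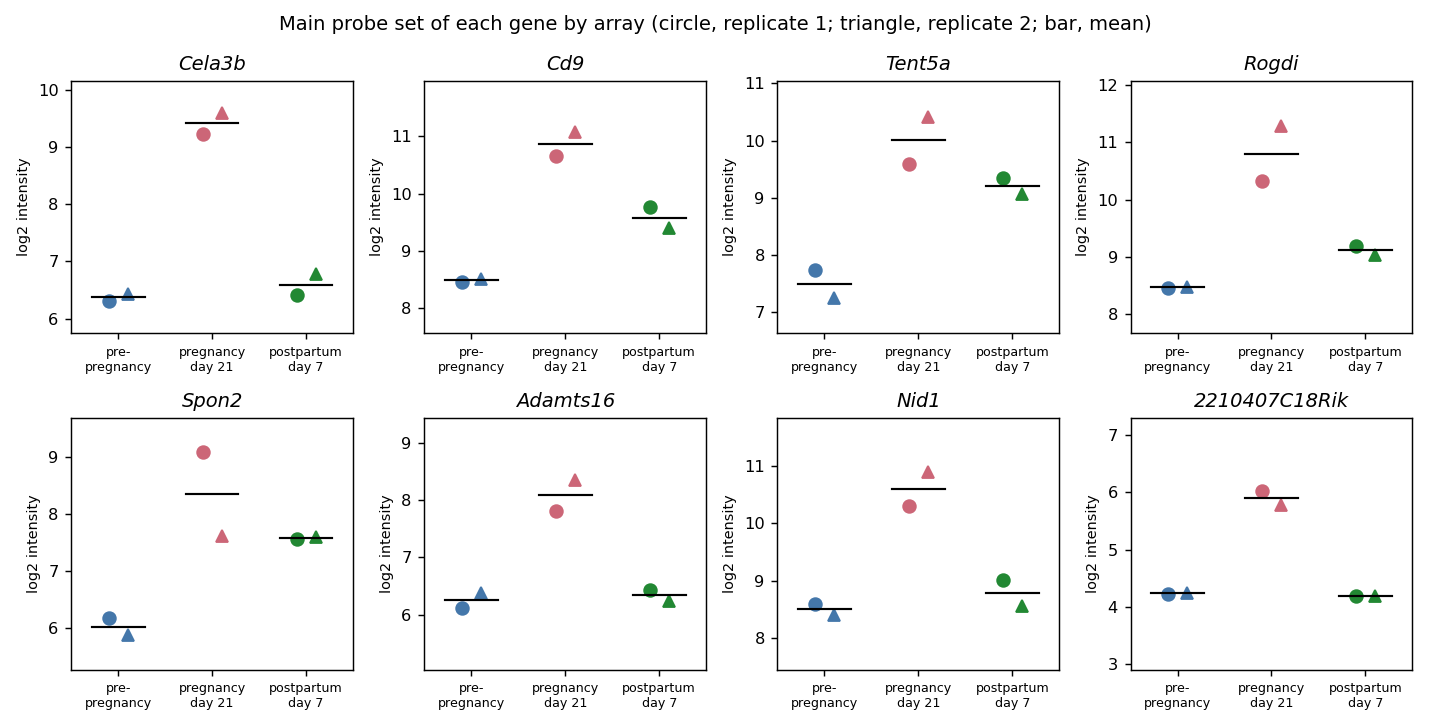
Log2 intensity of the main probe set of each of the 8 genes at the 3 stages, with a circle for replicate 1, a triangle for replicate 2 and a bar for the mean of 2 arrays; every panel spans the same number of log2 units. Both pregnancy arrays lie above both pre-pregnancy arrays in each panel, and Spon2 has the widest pair, at 9.08 and 7.62 in pregnancy.

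Among the secreted proteases, Cela3b measured 6.31 and 6.44 before pregnancy, 9.23 and 9.59 at day 21 of pregnancy, and 6.41 and 6.78 at day 7 postpartum. The pregnant livers stood apart from the other 4, and the postpartum and pre-pregnancy values overlapped. The mean was 9.41 ± 0.255 in pregnancy and 6.38 ± 0.0919 before it (SD, n = 2 each), which is 8.20-fold higher in pregnancy and ranked 3 among all genes by size. At postpartum day 7 Cela3b was 7.04-fold lower than in pregnancy (log2 difference -2.82 ± 0.165 SE, adjusted p = 0.000688). It differed from pre-pregnancy by 0.22 ± 0.165 (adjusted p = 0.50), with a 95% interval from -0.16 to 0.60. The share of the pregnancy rise left was 7.25%, and it was 13.3% without postpartum replicate 1 and 1.15% without postpartum replicate 2.

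Adamts16 followed the same course. Its arrays read 6.12 and 6.38 before pregnancy, 7.82 and 8.36 at day 21 of pregnancy, and 6.44 and 6.24 at day 7 postpartum, so the postpartum pair overlapped the pre-pregnancy pair. Adamts16 was 3.58-fold higher in pregnancy (mean 8.09 ± 0.382) than before it (6.25 ± 0.184). Postpartum it fell by 1.75 on the log2 scale relative to pregnancy (SE 0.186, 3.36-fold lower, adjusted p = 0.00540) and stood 0.09 from pre-pregnancy (95% interval from -0.34 to 0.52, adjusted p = 0.850). The share of the rise left was 4.89%. Without 1 array it ran from -2.34% (pre-pregnancy replicate 1 left out) to 11.2% (pre-pregnancy replicate 2 left out), and it was -0.543% and 10.3% without postpartum replicates 1 and 2.

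Of the matrix proteins, Nid1 read 8.60 and 8.40 before pregnancy, 10.30 and 10.89 at day 21 of pregnancy, and 9.01 and 8.56 at day 7 postpartum. The pregnant values were again apart, and postpartum replicate 2 lay between the pre-pregnancy arrays. Nid1 averaged 10.60 ± 0.417 in pregnancy and 8.50 ± 0.141 before it, a 4.27-fold higher level in pregnancy. It was 3.51-fold lower postpartum than in pregnancy (-1.81 ± 0.217, adjusted p = 0.00837). The postpartum difference from pre-pregnancy was 0.29 (95% interval from -0.22 to 0.79, adjusted p = 0.507). The share of the rise left was 13.6%, and it was 2.86% without postpartum replicate 1 and 24.3% without postpartum replicate 2.

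Spon2 was the member whose replicates disagreed most. Its arrays measured 6.18 and 5.88 before pregnancy, 9.08 and 7.62 at day 21 of pregnancy, and 7.57 and 7.60 at day 7 postpartum. Both later stages lay above both pre-pregnancy arrays, but pregnancy replicate 2 was within 0.05 of the postpartum pair while replicate 1 was far above it. The mean was 8.35 ± 1.03 in pregnancy and 6.03 ± 0.212 before it, 4.99-fold higher in pregnancy. Postpartum against pregnancy, Spon2 differed by -0.77 ± 0.389 (adjusted p = 0.315). Leaving out pregnancy replicate 2 made this difference -1.50 (adjusted p = 0.0108), and leaving out replicate 1 made it -0.035 (0.931), which is the full range over the 14 alternatives. Against pre-pregnancy, the postpartum level was 2.94-fold higher (1.56 ± 0.389, 95% interval from 0.65 to 2.46) at adjusted p = 0.0523, just outside the threshold of 0.05. Over 14 alternatives this adjusted p ranged from 0.00333 to 0.232 and passed in 7 of them. A share of 67.0% of the rise was left, with 97.8% when pregnancy replicate 1 was left out and 51.0% when replicate 2 was. Since neither postpartum difference was called, whether Spon2 returns, and how far, was not settled.

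The tetraspanin Cd9 read 8.46 and 8.51 before pregnancy, 10.65 and 11.07 at day 21 of pregnancy, and 9.76 and 9.40 at day 7 postpartum. The 3 stages did not overlap, and the postpartum livers lay midway. Cd9 averaged 10.86 ± 0.297 in pregnancy and 8.49 ± 0.0354 before it, which is 5.19-fold higher in pregnancy. Postpartum it was 2.43-fold lower than in pregnancy (-1.28 ± 0.170, adjusted p = 0.0120) and 2.14-fold higher than before pregnancy (1.10 ± 0.170, adjusted p = 0.0125), with 46.1% of the rise left. The call against pregnancy was lost without postpartum replicate 2 (adjusted p = 0.0644), and that against pre-pregnancy without pre-pregnancy replicate 1 (0.128), pre-pregnancy replicate 2 (0.0732) or postpartum replicate 1 (0.0571). These lie within ranges of 0.00280 to 0.0644 and 0.00403 to 0.128 over 14 alternatives each.

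Of the intracellular proteins, Tent5a kept the larger part of its rise. Its arrays measured 7.74 and 7.26 before pregnancy, 9.59 and 10.42 at day 21 of pregnancy, and 9.34 and 9.07 at day 7 postpartum. The postpartum pair was below the pregnant pair by a small gap and far above the pre-pregnancy pair. Tent5a averaged 10.01 ± 0.587 in pregnancy and 7.5 ± 0.339 before it, 5.68-fold higher in pregnancy. The postpartum level was 3.26-fold above pre-pregnancy (1.71 ± 0.270, adjusted p = 0.0132), and it was not called lower than in pregnancy (-0.80 ± 0.270, adjusted p = 0.154), with 68.1% of the rise left. Without pregnancy replicate 1 the difference from pregnancy was -1.22 and was called (adjusted p = 0.0403), and without replicate 2 it was -0.39 (0.419). Over 14 alternatives the difference ran from -1.22 to -0.39 and its adjusted p from 0.0403 to 0.427. Leaving out any 1 pre-pregnancy or postpartum array ended the call against pre-pregnancy, at adjusted p = 0.0918 and 0.0874 for pre-pregnancy replicates 1 and 2 and 0.0623 and 0.0599 for postpartum replicates 1 and 2, within a range of 0.00604 to 0.0918 over 14 alternatives.

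Rogdi lay between these courses. It read 8.46 and 8.48 before pregnancy, 10.32 and 11.28 at day 21 of pregnancy, and 9.19 and 9.04 at day 7 postpartum, with no overlap between stages. The pregnant mean was 10.80 ± 0.679 against 8.47 ± 0.0141 before pregnancy, 5.03-fold higher in pregnancy. Rogdi was 3.22-fold lower postpartum than in pregnancy (-1.69 ± 0.264, adjusted p = 0.0194), and its postpartum difference from pre-pregnancy was 0.65 ± 0.264 (95% interval from 0.03 to 1.26, adjusted p = 0.193), with 27.7% of the rise left, so a return to the earlier level was not shown. The first call was lost when either pre-pregnancy array was left out or only the 2 groups were fitted (adjusted p = 0.0696), and without postpartum replicate 1 (0.0880) or 2 (0.115), in a range of 0.00252 to 0.115. The difference from pre-pregnancy was called (adjusted p = 0.0176) when either pregnancy array was left out or only those 2 groups were fitted, in a range of 0.0176 to 0.503. The spread of the 2 pregnant livers, 0.96, enters the pooled error of that test.

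2210407C18Rik was dim outside pregnancy. It read 4.23 and 4.25 before pregnancy, 6.02 and 5.79 at day 21 of pregnancy, and 4.19 and 4.19 at day 7 postpartum. Its values outside pregnancy lay just above the range of the Y-linked genes, so its 3.17-fold higher mean in pregnancy (5.91 ± 0.163 against 4.24 ± 0.0141) is imprecise. Postpartum it was lower than in pregnancy by 1.72 on the log2 scale (difference -1.72 ± 0.112, adjusted p = 0.000976), and the difference from pre-pregnancy was -0.05 (95% interval from -0.31 to 0.21, adjusted p = 0.864).

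**Figure D2:**
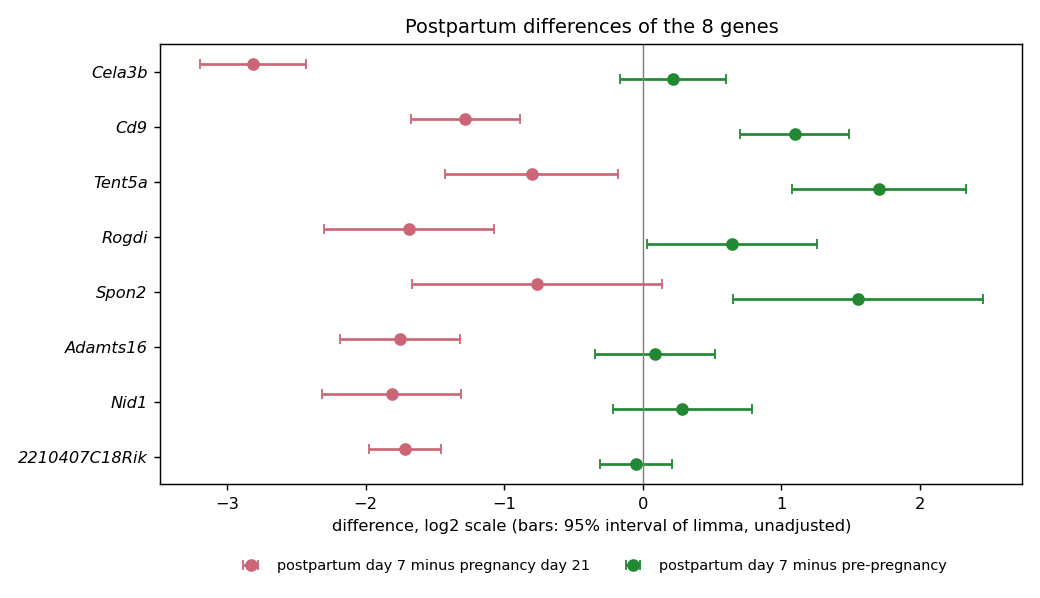
Log2 differences of postpartum day 7 from pregnancy day 21 (red) and from pre-pregnancy (green) for the 8 genes, with 95% intervals of limma's fit, unadjusted. Tent5a, Spon2 and Cd9 lie furthest above their pre-pregnancy level, at 1.71, 1.56 and 1.10, and Cela3b lies furthest below its pregnancy level, at -2.82.

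Set side by side, 6 of the 8 genes were called lower postpartum than in pregnancy, where 0.879% of all genes were. Both postpartum arrays lay below both pregnancy arrays in 8 of 8, as in 25.0% of all genes. The postpartum arrays took no part in the choice of the genes, but the pregnancy arrays did, and picking genes that were high in those 2 livers favours a fall after them. Against pre-pregnancy, 2 of 8 genes, Cd9 and Tent5a, were called higher postpartum, where 3.91% of all genes were. The choice also used the pre-pregnancy arrays, which favours higher values afterwards. Both postpartum arrays lay above both pre-pregnancy arrays in 4 genes (Cd9, Tent5a, Rogdi and Spon2; 30.0% of all genes did). Cela3b, Adamts16 and Nid1 overlapped their pre-pregnancy level, and 2210407C18Rik lay just below it, as 22.6% of all genes did, with a mean difference of -0.05. The count of 2 was 0 without pre-pregnancy replicate 1, pre-pregnancy replicate 2 or postpartum replicate 1, 1 without postpartum replicate 2, and 4 without either pregnancy array. Over all genes the count called higher also shrank, to 46 without pre-pregnancy replicate 1 and 124 without replicate 2, against 711 with all arrays. In the contrast that chose the genes, from which nothing is read, both pregnancy arrays lay above both pre-pregnancy arrays in 8 of 8 and in 33.6% of all genes, and the members' differences ran from 1.67 to 3.04 (median 2.33, all genes 0.045). Pregnancy replicate 2 was the higher of the pair in 6 of 8 genes and in 44.8% of all genes, with Spon2 and 2210407C18Rik the exceptions.

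The 8 genes have 15 probe sets, and the size of the rise depended on which was read. All 3 other probe sets of Cela3b gave a larger difference between pregnancy and pre-pregnancy than the main one. Probe set 1437326 (numbers are Affymetrix's, without suffix) read 4.58 and 4.83 before pregnancy, 10.08 and 10.28 at day 21 of pregnancy, and 4.74 and 4.77 at day 7 postpartum, a log2 difference of 5.48 in pregnancy. The probe sets 1435611 and 1415883 stood 4.23 and 4.39 higher in pregnancy, against 3.04 for the main probe set 1415884. The levels outside pregnancy were dim for 1437326 and 1415883, so the folds of 44.5 and 20.9 are imprecise. The names of 1437326 and 1435611 carry Affymetrix's x suffix, which marks probe sets that may bind related sequences. All 4 probe sets were back within 0.29 of pre-pregnancy postpartum, and their share of the rise left was 0.913% to 7.25%.

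In Nid1, Spon2 and Adamts16 the other probe sets gave smaller differences than the main one. Nid1's second probe set, 1448469, read 5.84 and 5.64 before pregnancy, 6.44 and 6.70 at day 21 of pregnancy, and 5.70 and 5.45 at day 7 postpartum, a difference of 0.83 in pregnancy, or 1.78-fold, where the main one gave 4.27-fold. The third, 1441519, was dim at every stage (3.06 to 3.25) and differed by -0.045. The second probe sets of Spon2 (1458175, 0.36 higher in pregnancy) and Adamts16 (1439604, 0.31 higher) were dim at every stage, so they carry no fold. Averaging all probe sets of a gene gave differences of 4.28 for Cela3b, 1.34 for Spon2, 1.07 for Adamts16 and 0.96 for Nid1. With these averages the share of the rise left was 4.32% for Cela3b, 66.2% for Spon2, 10.5% for Adamts16 and 4.69% for Nid1. Cd9, Tent5a, Rogdi and 2210407C18Rik have 1 probe set each.

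**Figure D3:**
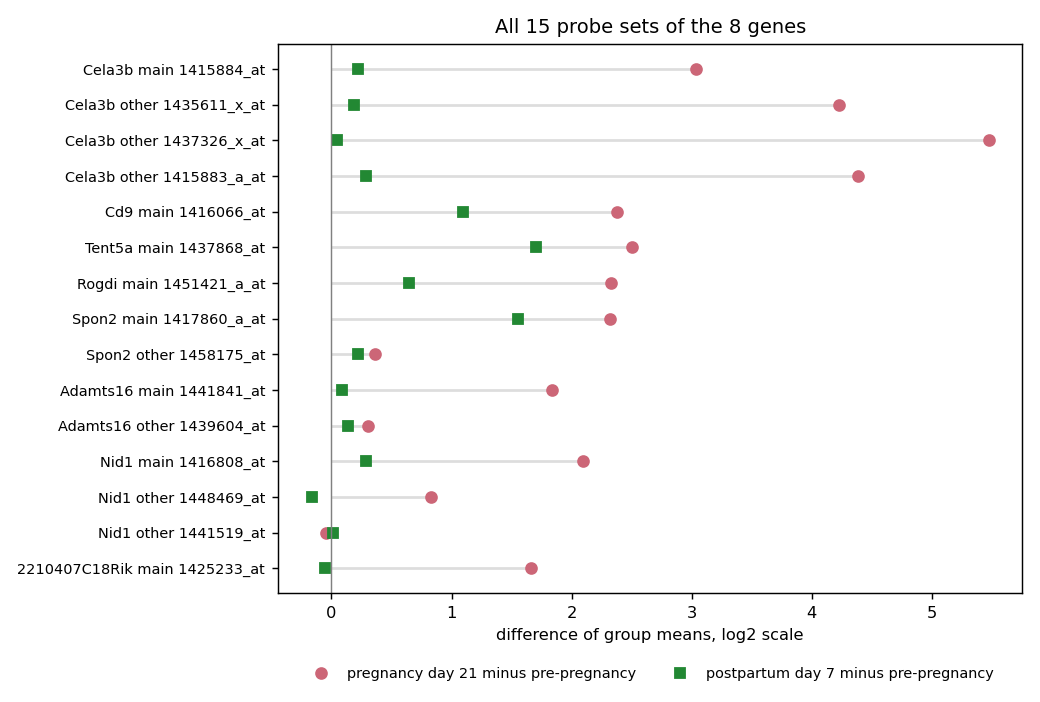
Log2 differences from pre-pregnancy for all 15 probe sets of the 8 genes, with circles for pregnancy day 21 and squares for postpartum day 7; each gene's main probe set stands first. The 4 Cela3b probe sets run from 3.04 to 5.48 in pregnancy, and the dimmest probe set of Nid1 stands at -0.045.

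Relatives of each gene were counted from lists of families and partners, with the 8 genes themselves left out. Beside Cela3b, 28 pancreatic acinar genes were measured, of which 2 rose and 1 fell in pregnancy, where 5.46% of all genes (993) were called higher and 8.25% (1501) lower. A further quantile normalization turned that split to 1284 higher and 1150 lower. Cela1, the elastase that liver also expressed, went the other way: it read 9.14 and 9.33 in pregnancy against 10.37 and 10.46 before it (-1.18 ± 0.112, adjusted p = 0.00167), and it read 9.42 and 9.32 postpartum, again below both pre-pregnancy arrays (-1.05 ± 0.112, adjusted p = 0.00443). The lipase relative Pnliprp1 rose by 0.86 ± 0.139 (adjusted p = 0.00929) and Pnliprp2 by 0.40 ± 0.0996 (0.0367), both dim at every stage. The median difference of the 28 was 0.22, where all genes stood at 0.045. Postpartum against pregnancy, 1 of 28 fell, Pnliprp1 (-0.77 ± 0.139, adjusted p = 0.0313), where 0.879% of all genes did. Against pre-pregnancy 1 fell, Cela1, where 3.75% of all genes did.

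Of 28 other tetraspanins, 3 rose in pregnancy, Upk1b (0.97 ± 0.245), Tspan33 (0.91 ± 0.204) and Tspan8 (0.84 ± 0.175), and 3 fell, led by Tspan4 (-1.05 ± 0.228) and Cd53 (-0.84 ± 0.167), a tetraspanin of leukocytes. Cd9 stood outside their range, as its choice for a rise in this same contrast makes likely. Beside these counts and the pregnancy counts that follow, 5.46% of all genes rose and 8.25% fell. Of 12 other terminal nucleotidyltransferases, 2 fell, Papolg (-0.53 ± 0.132) and the uridyltransferase Tut4 (-0.50 ± 0.136), and Tut4 was also lower postpartum than before pregnancy (-1.01 ± 0.136, adjusted p = 0.00878). The close Tent5a relatives Tent5c (0.20, adjusted p = 0.600) and Tent5b (0.015, adjusted p = 0.940) were not called. Of Rogdi's partners, the RAVE subunit Dmxl2 fell in pregnancy (-0.63, adjusted p = 0.0116), Dmxl1 was at -0.54 (adjusted p = 0.151) and Wdr7 at 0.20 (0.240). Over the 25 RAVE and V-ATPase genes 3 rose, among them Atp6v0d2 (0.72) and Atp6v1c1 (0.63), and 4 fell, among them Atp6v0e2 (-0.68). Postpartum against pregnancy 1 rose, the proton pump subunit gene Tcirg1 (0.77, adjusted p = 0.0133), where 2.41% of all genes did.

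Of 24 measured basement membrane partners of Nid1, 3 rose in pregnancy and 0 fell, where 5.46% and 8.25% of all genes did. The 3 were Col4a2 (0.91 ± 0.124, adjusted p = 0.00516), Col4a1 (0.46 ± 0.113, 0.0367) and Col18a1 (0.53 ± 0.107, 0.0187). Col4a1 and Col4a2 are the chains of the main type IV collagen, and Col18a1 is the source of endostatin. At an unadjusted p under 0.05, 4 of the 24 were higher and 4 lower, where 15.2% and 15.8% of all genes were. The median of the 24 was 0.055, near that of all genes at 0.045. Postpartum against pregnancy 1 of the 24 fell, Col4a2 (-0.62 ± 0.124, adjusted p = 0.0434), where 0.879% of all genes did. The laminin chain gene Lamc1 (-0.18, adjusted p = 0.462) and the related nidogen gene Nid2 (-0.33, adjusted p = 0.132) were not called in pregnancy. Of 19 other ADAMTS genes, 1 rose (Adamts6, 0.44, dim at every stage) and 3 fell, led by Adamts1 (-0.83, adjusted p = 0.00445), which was still lower postpartum than before pregnancy (-0.88). Of 16 spondin and thrombospondin-repeat genes besides Spon2, 1 rose, Sspo (0.64, adjusted p = 0.0235). Beside these ADAMTS and spondin counts, 5.46% of all genes rose and 8.25% fell in pregnancy.

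**Figure D4:**
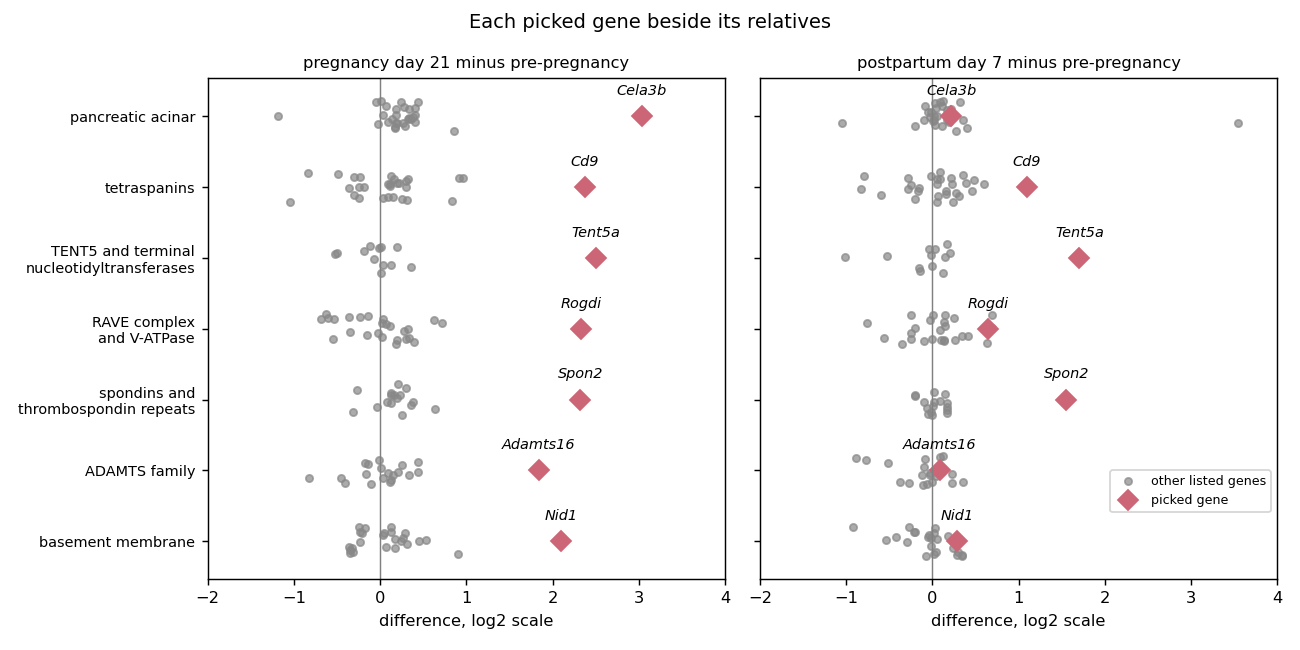
Log2 differences from pre-pregnancy at pregnancy day 21 (left) and postpartum day 7 (right) for 7 lists of relatives; diamonds are the picked genes and grey points the other listed genes, spread vertically for legibility. On the left each diamond lies beyond every grey point of its list, as the choice of genes makes likely, and on the right Cela3b, Rogdi, Adamts16 and Nid1 lie within their lists.

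Because whole liver was sampled, fewer cells of a type and less RNA per cell cannot be told apart, and markers of other cell types were set beside the 8 genes. Of the 28 acinar genes besides Cela3b, 15 were dim in pregnancy, against 20 before it, and 14 were dim at all 3 stages, among them Cpa1, Cpb1, Cel and Ctrc. Other acinar enzymes were low but not dim in pregnancy, such as Prss2 (5.37 in pregnancy, 5.23 before it) and Clps (5.43 in pregnancy, 5.03 and dim before it). At an unadjusted p under 0.05, 9 of the 28 were higher in pregnancy and 1 lower, where 15.2% of all genes were higher and 15.8% lower. The summed linear level of the 28 was 2401 and 2460 in pregnancy, against 2888 and 2967 before it. Without Cela1 the sum of the other 27 was 1837 and 1817 in pregnancy, against 1565 and 1558 before it. That sum rests largely on 1 gene, Nr5a2, at log2 9.93 and 9.89 in pregnancy and 9.74 and 9.70 before it. The next brightest at these stages, Klk1, read 6.87 and 7.13 in pregnancy and 6.58 and 6.66 before it. No sum without Nr5a2 was made. Beside the counts of markers called in pregnancy that follow, 5.46% of all genes rose and 8.25% fell. Of 17 sinusoidal and vascular endothelial markers, 4 fell in pregnancy, and 10 were lower at an unadjusted p under 0.05, where 15.8% of all genes were. Their summed level was 7942 and 8259 in pregnancy, against 11678 and 9131 before it. Of 15 stellate cell and fibroblast markers 1 fell, Lrat (-1.47, adjusted p = 0.0230), with sums of 9235 and 9080 in pregnancy against 10895 and 9992 before it, and 0 of the 15 were called under a trended and robust variance. Of 12 platelet markers, where Cd9 is abundant, 1 rose, Treml1 (0.59, adjusted p = 0.0262). Their sums of 1100 and 1092 in pregnancy lay within those before it, 1357 and 1049. At an unadjusted p under 0.05, 3 platelet markers were higher and 1 lower in pregnancy, where 15.2% and 15.8% of all genes were. Postpartum against pregnancy, 0 were higher and 4 lower, where 11.9% and 8.78% of all genes were. Of 14 Kupffer cell markers 1 rose and 2 fell. Of 16 stomach and gut markers 2 rose, Gkn3 (0.82) and Tff3 (0.52), both of low signal. At an unadjusted p under 0.05, 5 of the 16 were higher and 0 lower in pregnancy. By the same measure 1 was higher and 5 lower postpartum than in pregnancy. Of 8 mesothelial markers 1 rose, Upk1b. Of 10 cholangiocyte and 7 erythroid markers limma called 0 in pregnancy, with 0 and 1 at an unadjusted p under 0.05 and 0 in both lists under a trended and robust variance. The 5 measured placental and decidual genes lay between 3.17 and 4.80 on every array. The part of these cell types in the values of the 8 genes was not tested.

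All 8 genes were chosen as high in pregnancy, which makes their profiles alike: over the 6 arrays their pairwise Pearson r ran from 0.618 (Adamts16 with Spon2) to 0.984 (Adamts16 with Nid1), with a median of 0.897 over 28 pairs that share these arrays. Genes with the most similar profile were sought among 760 others with an SD of at least 0.5 over the 6 arrays. Closest to Cela3b were F11 (coagulation factor XI, r = 0.994), the forkhead factor gene Foxa3 (0.992) and the secreted peroxidase gene Gpx3 (0.989). Gpx3, which was 3.98 higher in pregnancy, was also second for Nid1 (0.978), between Crip1 (0.986) and the lipoprotein gene Apoc2 (0.977). 2210407C18Rik was nearest to the hepatokine gene Fgf21 (0.996), Vnn3 (0.994) and F11 (0.986), and Adamts16 to Sfrp1 (0.992), Lifr (0.985) and Tmem191c (0.976).

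Cd9 was closest to F7 (coagulation factor VII, 0.994), the autophagy kinase gene Ulk1 (0.990) and Cars (0.990), which stood 0.81, 0.79 and 0.88 above pre-pregnancy postpartum. Tent5a was closest to BC024139 (0.994), the carotene oxygenase gene Bco1 (0.992) and A2ml1 (0.989), with 0.68, 1.01 and 0.83 left postpartum. Spon2 was closest to Acot2 (0.992), Ndrg1 (0.985) and Ggct (0.984), and Rogdi to Rrbp1 (0.985), Dpf1 (0.981) and the imprinted gene Peg3 (0.981). These likenesses describe 6 arrays at 3 stages, and no test was made of them. The genes were picked on all 6 arrays, the postpartum ones included, so their likeness postpartum follows from the picking.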

How the data were processed

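Total RNA (250 ng per liver) from 6 livers was labelled by the GeneChip 3' IVT Express procedure and hybridised to Affymetrix mouse arrays, per the labels' protocols. The authors deposited log2 values for 45101 probe sets; per the submitters' processing notes, RMA and Affymetrix Power Tools were used; no version or setting is given there. The log2 base was inferred from the values, which run from 2.69 to 15.05. RMA as usually run equalises array distributions and compresses differences near background.

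Names came from the annotation table of the platform, where 34958 probe sets had 1 symbol, 932 several (left unnamed) and 9211 none here; 0 symbols changed when updated through gene IDs. The brightest probe set of each gene (18194 genes) was fitted with limma 3.58.1 in R 4.3.3 (a mean per stage, all 6 arrays, eBayes, 3 residual and 4.80 prior degrees of freedom), two-sided, with Benjamini-Hochberg adjustment and a threshold of 0.05. The fit was tested on simulated data. Python 3.11.15 made the other tables.

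The 8 genes and the 18 lists were chosen with earlier results of these data known. Named relatives are up to 4 called genes per list, largest differences first. The closest relatives (Tent5b, Tent5c, Dmxl1, Wdr7, Nid2, Lamc1), the acinar enzymes of low signal, Nr5a2 and Klk1 were named after their values were seen. Share of the rise left is the postpartum over the pregnancy difference from pre-pregnancy, on the log2 scale. Replicate numbers did not pair the livers: replicate differences correlated at 0.028, -0.027 and 0.111 between stages. Promoter sequences are RefSeq's. No coordinates beyond those windows are given, since no build is named for the arrays.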

Additional observations from a re-analysis of the deposited data

How the results depend on the processing

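Each value of the 8 genes was recomputed under up to 14 alternatives, and 0 of 405 results changed direction where a call was involved; 365 kept their side of the threshold or moved by less than 1 SD. The count of genes called lower postpartum than in pregnancy was 6 and ranged from 4 to 7 with 1 array left out. The count called higher postpartum than before pregnancy was 2, ranged from 0 to 4 with 1 array left out, and was 4 when only the 2 groups compared were fitted, where Rogdi and Spon2 were added; the wide pregnant pairs of both genes then leave the error. With the replicate number as a block these counts were 6 and 3, Spon2 being added (adjusted p = 0.0297, in a range of 0.00333 to 0.232); the block rests on numbers that do not pair the livers. With only genes above the 40th percentile of mean brightness (5.515, a higher cut than that for dim), 2210407C18Rik is not tested. The counts were then 5 and 3, Spon2 being added (adjusted p = 0.0493). Over all genes, 439 were higher and 160 lower postpartum than in pregnancy, against 286 and 189 after a further quantile normalization, 153 and 50 with only the 2 groups, and 584 and 246 with a trended and robust variance. Averaging a gene's probe sets moved the pregnancy differences of Cela3b, Spon2, Adamts16 and Nid1 as given above. The number of arrays and, for 2210407C18Rik, a signal near background limit the precision.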

Other observations

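In the liver of postpartum replicate 1, Dmbt1, a secreted scavenger receptor gene of epithelia, measured 9.94, against 3.71 in postpartum replicate 2 and 3.28 to 3.68 in the other 4 livers. It was singled out after its values were seen. The summed level of the acinar list without Cela3b, which holds Dmbt1, was 3495 and 2455 postpartum, against 2401 and 2460 in pregnancy. Most of the gap between the 2 postpartum sums is Dmbt1 itself, so it does not speak for the other acinar genes. For the cholangiocyte markers the sums were 774 and 560 postpartum, against 473 and 413 in pregnancy. Of the 10 cholangiocyte markers limma called 0 after adjustment in any of the 3 comparisons, also with a trended and robust variance; at an unadjusted p under 0.05, 5 were higher postpartum than in pregnancy, where 11.9% of all genes were, and 5 higher than before pregnancy, where 12.2% were. The 8 genes did not separate that liver: in postpartum replicate 1 their values lay within 0.45 of those in replicate 2.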
